A study of Mus musculus with 5 samples.

Results

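Mucins coat epithelial surfaces with heavily O-glycosylated protein. Membrane-bound mucins such as Muc1 stay tethered to the apical membrane as part of the glycocalyx, whereas gel-forming mucins such as Muc6 are secreted and polymerise into mucus. Trefoil factors are small, disulfide-rich peptides secreted beside mucins, and Tff1 and Tff2 are known mainly from the stomach. In the pancreas, Muc1 lines the apical membrane of ducts, and Tff2 was first isolated from pig pancreas as pancreatic spasmolytic polypeptide. The 10 genes described here were taken by symbol, without a minimum level: the membrane-bound mucins Muc1, Muc4, Muc13 and Muc20, the gel-forming mucin Muc6, the trefoil factors Tff1 and Tff2, the gastrokine Gkn3, the mucin-folding enzyme gene Agr2 and the polymeric immunoglobulin receptor gene Pigr. They are 10 of the 24148 symbols that appear in any table. All 10 are listed in the tables of 4 libraries and 9 in that of the fifth, which gives no value for Muc13.

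The RNA came from freshly sorted pancreatic cells of adult C57BL/6 mice aged 2 to 4 months, with no treatment named, and was sequenced as 3 libraries of CD133(high)CD71(low) cells and 2 of CD133(positive)CD71(negative) cells. Prom1 encodes CD133, and CD71 is the transferrin receptor that takes up iron. Both populations carry CD133 and were separated by how much of each protein they show. For the CD133(high)CD71(low) samples a second label field calls both markers positive. The series concerns progenitor cells that form colonies, and the comparison asks how the transcripts of the sorted fractions differ. Whether libraries of a group came from separate mice is not stated, and the p-values below therefore reflect the spread among these 5 libraries alone, which could be technical.

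The libraries held about 30700000 to 41700000 reads in CD133(high)CD71(low) and 19700000 to 25400000 in CD133(positive)CD71(negative), as estimated from the spacing of low values. Values were taken as RPKM, read counts scaled to transcript length and library size, although no source states the unit. On that basis levels are set side by side between genes. Library 3 of CD133(high)CD71(low), whose title carries no number, was deposited with 22522 symbols, against 18618 in each other library, and stood apart. Its log2(RPKM + 1) values correlated across genes with those of libraries 1 and 2 of its group at r = 0.958 and 0.962, against 0.996 between libraries 1 and 2. In bulk RNA of sorted cells, fewer cells of a type and less RNA per cell cannot be told apart. Summed markers of acinar cells (13 genes) reached 96370 to 210827 RPKM in CD133(high)CD71(low) and 224217 to 249756 RPKM in CD133(positive)CD71(negative) libraries, and those of duct cells (15 genes) 5389 to 7571 RPKM and 3667 to 3936 RPKM.

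The promoters of Muc1, Pigr and Gkn3 are shown because these genes gave the clearest separations between the populations. Each is the RefSeq window from 250 bases before to 50 bases after the annotated start (build GRCm38.p6, which is mm10), printed 5′ to 3′ on the gene's strand. RefSeq windows were matched for 8 of the 10 genes. Capitals mark every match, on either strand, to TATAAA (the TATA box), CACGTG and CACCTG (E-box forms), GGGCGG (a GC box) or GATAA (the core bound by GATA factors). These motifs were chosen after the sequences were seen, and no 2 matches overlap in these windows.
Muc1, chr3:89228806-89229105, plus strand: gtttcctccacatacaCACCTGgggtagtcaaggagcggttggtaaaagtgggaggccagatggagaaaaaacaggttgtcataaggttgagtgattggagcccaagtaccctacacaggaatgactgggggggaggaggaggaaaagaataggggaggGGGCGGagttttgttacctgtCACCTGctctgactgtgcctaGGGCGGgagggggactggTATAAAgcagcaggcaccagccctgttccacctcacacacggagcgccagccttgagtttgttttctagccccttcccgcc
Pigr, chr1:130826434-130826733, plus strand: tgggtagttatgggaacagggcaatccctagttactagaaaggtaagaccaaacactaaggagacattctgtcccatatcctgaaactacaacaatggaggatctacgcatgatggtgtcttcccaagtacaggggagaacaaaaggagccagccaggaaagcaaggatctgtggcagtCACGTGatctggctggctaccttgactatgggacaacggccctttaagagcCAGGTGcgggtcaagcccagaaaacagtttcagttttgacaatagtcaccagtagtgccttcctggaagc
Gkn3, chr6:87388886-87389185, minus strand: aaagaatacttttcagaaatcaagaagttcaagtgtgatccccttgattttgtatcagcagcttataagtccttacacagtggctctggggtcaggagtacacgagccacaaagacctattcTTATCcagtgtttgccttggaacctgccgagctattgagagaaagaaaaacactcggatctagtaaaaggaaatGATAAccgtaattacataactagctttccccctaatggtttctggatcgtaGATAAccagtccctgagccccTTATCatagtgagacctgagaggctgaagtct

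In the Muc1 window TATAAA begins at position -31 from the start site, GGGCGG at -91 and -49, and CACCTG at -234 and -70. In the Pigr window CACGTG begins at -71 and a reverse-strand match to CACCTG at -20. The Gkn3 window holds 4 matches to GATAA and none to the other motifs. Of 32851 RefSeq windows of the same length, 13.6% hold TATAAA, 7.15% CACGTG, 20.2% CACCTG, 35.7% GGGCGG and 25.4% GATAA on either strand. A match is a run of letters and not a measured binding site.

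Among the membrane-bound mucins that are members, Muc1 made up nearly all of the transcript level, and it was higher in CD133(high)CD71(low) cells. The other membrane-bound members stayed near or below 1 RPKM. The gel-forming Muc6 was at trace level in every library. Tff2 was the most abundant of the 10 genes in all 5 libraries and showed no difference past the test. Gkn3 was lower in CD133(high)CD71(low) cells in every library. In the fit across all genes (limma with Benjamini-Hochberg adjustment, threshold 0.05), 2 of the 9 members tested passed, 1 higher and 1 lower, against 15.9% of the 16887 genes tested (5.67% higher and 10.2% lower). The groups did not overlap for 4 of the 9, against 62.5% of all genes (44.5% higher and 18% lower), so neither count is a result about these genes as a set. Over all genes the fold changes had a median of 0.18 (log2), and median-of-ratios scaling brought that to 0.00. Calls under other settings are read against the share of all genes that passed there. That share was 14.8% under median-of-ratios scaling (2.64% higher and 12.2% lower), 16.2% under quantile normalization, 16.1% with acinar genes removed, 15.5% with a pseudocount of 0.1, 13.5% and 10.5% with a mean of at least 1 or 5 RPKM, 15.2% with a replicate block and 29.6% in the 4 numbered libraries with their own symbols. It was 34.9% without library 3 of CD133(high)CD71(low) (21.9% higher and 13% lower), and 23% when that was combined with median-of-ratios scaling. Without library 1 or 2 of CD133(high)CD71(low) it was 8.28% and 5.64%, and without library 1 or 2 of CD133(positive)CD71(negative) 5.65% and 5.94%.

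**Figure D1:**
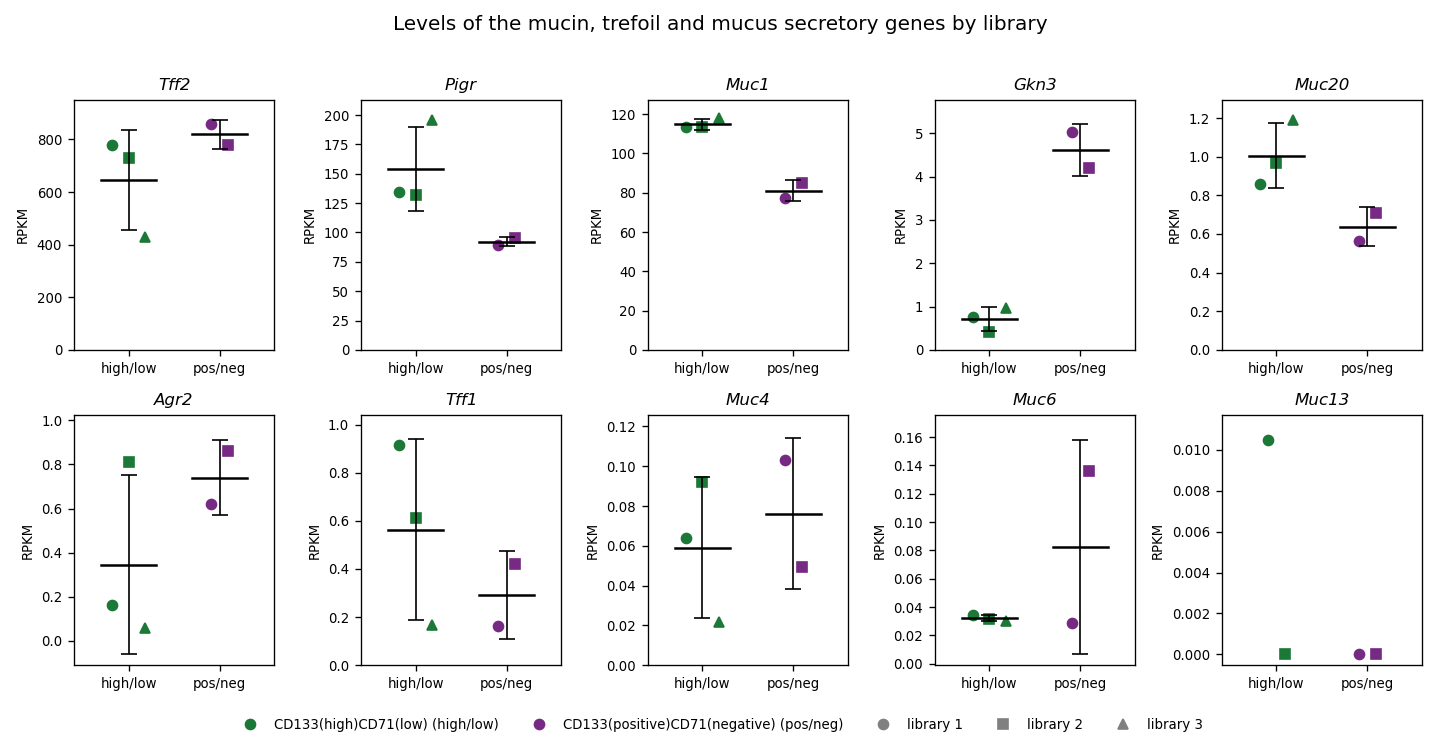
Each panel plots 1 gene, with RPKM on a linear y axis, CD133(high)CD71(low) libraries on the left and CD133(positive)CD71(negative) libraries on the right. Symbols mark library numbers, horizontal lines the group mean and bars the SD (not drawn for Muc13, at 0 in 3 of 4 libraries). The groups are apart for Pigr, Muc1, Gkn3 and Muc20, and overlap in the other panels.

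Muc1 (chromosome 3, 89229057 to 89233381, mm10, plus strand, ENSMUSG00000042784.9) encodes the tethered mucin of ductal and other simple epithelia. It measured 113.3, 113.2 and 118.1 RPKM in the CD133(high)CD71(low) libraries, against 77.4 and 84.8 RPKM in the CD133(positive)CD71(negative) libraries. The 3 CD133(high)CD71(low) libraries lay close together and above both others. The means were 114.9 ± 2.84 RPKM (SD, n = 3) and 81.1 ± 5.23 RPKM (SD, n = 2), a ratio of 1.42. The log2 fold change was 0.50 (SE 0.09, 95% interval 0.26 to 0.73, limma adjusted p = 0.0283). Muc1 ranked 273 of 16992 common symbols by mean level in CD133(high)CD71(low) and 329 in CD133(positive)CD71(negative).

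The Muc1 call depended on scaling, on single libraries and on which genes were tested with it. It was lost under median-of-ratios scaling (log2 fold change 0.20, limma adjusted p = 0.319), under quantile normalization (0.28, limma adjusted p = 0.0712) and when acinar markers were removed and the rest rescaled (0.37, limma adjusted p = 0.0707). It was also lost without library 1 (limma adjusted p = 0.118) or library 2 (limma adjusted p = 0.114) of CD133(high)CD71(low), and without library 1 (limma adjusted p = 0.186) or 2 (limma adjusted p = 0.109) of CD133(positive)CD71(negative). A mean of at least 5 RPKM, where fewer genes are tested, lost the call as well (0.50, limma adjusted p = 0.0566). A mean of at least 1 RPKM kept it (0.50, limma adjusted p = 0.0481). The call held without library 3 of CD133(high)CD71(low) (0.48, limma adjusted p = 0.0122), also with median-of-ratios scaling (0.28, limma adjusted p = 0.0173). Muc1 was higher in 3 of 3 CD133(high)CD71(low) libraries as deposited, and its fitted direction was the same in all 14 alternatives.

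The other membrane-bound members were scarce. Muc20, grouped with the membrane-bound mucins, measured 0.859, 0.969 and 1.19 RPKM in CD133(high)CD71(low), against 0.566 and 0.71 RPKM in CD133(positive)CD71(negative) libraries. The groups did not overlap, but the difference did not pass (log2 fold change 0.29, SE 0.097, 95% interval 0.04 to 0.54, limma adjusted p = 0.113). Under quantile normalization it passed (0.49, limma adjusted p = 0.017).

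Muc4, a large membrane-bound mucin that can bind the receptor ErbB2, measured 0.0637, 0.0919 and 0.0218 RPKM in CD133(high)CD71(low) and 0.103 and 0.0492 RPKM in CD133(positive)CD71(negative) libraries. With the length of its RefSeq-linked transcript these values stand for about 10 to 32 reads per library. The groups overlapped (log2 fold change -0.02, 95% interval -0.13 to 0.08, limma adjusted p = 0.677), and the direction turned under 5 of 12 alternatives. Muc4 and Muc20 overlap at their ends on opposite strands of chromosome 16 (32735886 to 32782391 and 32777419 to 32797435), and reads from that stretch could not be told apart where the counting used no strand.

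Muc13, a membrane-bound mucin known from the intestine, was listed at 0.0105 RPKM, about 1 read, in CD133(high)CD71(low) library 1 and at 0 in library 2 of that group, and at 0 in both CD133(positive)CD71(negative) libraries. A limit of 3 reads corresponds to 0.0317 and 0.0329 RPKM in those CD133(high)CD71(low) libraries and to 0.0398 and 0.0513 RPKM in the CD133(positive)CD71(negative) libraries, so Muc13 was not detectable above that level. Such limits cover counting error only.

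Muc6 (chromosome 7, 141633456 to 141655319, mm10, minus strand), the gel-forming mucin of gastric gland mucous cells, was the single gel-forming member. It measured 0.0344, 0.0317 and 0.0303 RPKM in CD133(high)CD71(low), and 0.0288 and 0.136 RPKM in CD133(positive)CD71(negative) libraries. These levels stand for about 6 to 23 reads per library. One CD133(positive)CD71(negative) library lay below the CD133(high)CD71(low) range and the other above it, and the difference did not pass (log2 fold change -0.07, 95% interval -0.19 to 0.05, limma adjusted p = 0.335). Without CD133(positive)CD71(negative) library 1, when the group is library 2 alone, it passed (-0.14, limma adjusted p = 0.0424), and without library 2 its direction turned (0.0047, limma adjusted p = 0.846).

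Within every library the membrane-bound mucins, through Muc1, lay far above the gel-forming Muc6. The 4 membrane-bound mucins summed to 114.3, 114.2 and 119.4 RPKM in CD133(high)CD71(low), and to 78.1 and 85.6 RPKM in CD133(positive)CD71(negative) libraries. Muc1 was 99.0% to 99.2% of the sum over all 5 mucins in CD133(high)CD71(low) and 99.0% to 99.1% in CD133(positive)CD71(negative) libraries. The level of Muc1 was 3292, 3567 and 3896 times that of Muc6 in CD133(high)CD71(low), and 2689 and 625 times in CD133(positive)CD71(negative) libraries.

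Tff2 (chromosome 17, 31141049 to 31144282, mm10, minus strand), which in the stomach is secreted with Muc6, measured 780.8, 728.3 and 428.6 RPKM in CD133(high)CD71(low), against 859.4 and 780.5 RPKM in CD133(positive)CD71(negative) libraries. Library 3 was the lowest, and library 1 of CD133(high)CD71(low) reached the lower CD133(positive)CD71(negative) library. The means were 645.9 ± 190.0 RPKM (SD, n = 3) and 819.9 ± 55.8 RPKM (SD, n = 2). The log2 fold change was -0.39 (SE 0.316, 95% interval -1.22 to 0.44, limma adjusted p = 0.404). It ranked 39 of 16992 symbols in CD133(high)CD71(low) and 32 in CD133(positive)CD71(negative). The difference passed under none of 14 alternatives (log2 fold changes -0.69 to -0.12, limma adjusted p = 0.135 to 0.722).

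Tff1, which in the stomach is secreted by surface mucous cells with Muc5ac, measured 0.915, 0.61 and 0.165 RPKM in CD133(high)CD71(low), and 0.164 and 0.422 RPKM in CD133(positive)CD71(negative) libraries. The groups overlapped (log2 fold change 0.25, SE 0.234, 95% interval -0.36 to 0.86, limma adjusted p = 0.46), and library 3 was as low as the lowest CD133(positive)CD71(negative) library. By length its values stand for about 3 to 20 reads, and an antisense gene, Gm15318, overlaps it. In every library Tff1 stayed below 1 RPKM, far under Tff2.

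Gkn3 (chromosome 6, 87383256 to 87388935, mm10, minus strand), a gastrokine of the stomach that is also known from arterial endothelium of mouse brain, fell. It measured 0.749, 0.408 and 0.961 RPKM in CD133(high)CD71(low), against 5.04 and 4.2 RPKM in CD133(positive)CD71(negative) libraries. All 3 CD133(high)CD71(low) libraries lay below 1 RPKM and both CD133(positive)CD71(negative) libraries above 4 RPKM. The means were 0.706 ± 0.279 RPKM (SD, n = 3) and 4.62 ± 0.6 RPKM (SD, n = 2), a ratio of 6.54 in favour of CD133(positive)CD71(negative). The log2 fold change was -1.73 (SE 0.182, 95% interval -2.21 to -1.25, limma adjusted p = 0.00672). Its fitted fold change ranged from -2.61 to -1.6 over 13 alternatives and passed in 12. Without CD133(positive)CD71(negative) library 1 the limma adjusted p was 0.0615. Its values stand for about 11 to 34 reads in CD133(high)CD71(low) and about 71 to 110 reads in CD133(positive)CD71(negative) libraries.

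Agr2, an endoplasmic reticulum protein disulfide isomerase that mouse intestine needs to make Muc2, measured 0.164, 0.81 and 0.0608 RPKM in CD133(high)CD71(low), and 0.619 and 0.862 RPKM in CD133(positive)CD71(negative) libraries. CD133(high)CD71(low) library 2 lay inside the CD133(positive)CD71(negative) range and the other two below it. The difference did not pass (log2 fold change -0.41, SE 0.253, 95% interval -1.07 to 0.25, limma adjusted p = 0.299). Its values stand for about 2 to 20 reads per library.

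Pigr (chromosome 1, 130826684 to 130852249, mm10, plus strand) encodes the receptor that carries polymeric IgA across epithelia and is released with it as secretory component. It measured 134.4, 132.3 and 195.8 RPKM in CD133(high)CD71(low), against 89.6 and 94.9 RPKM in CD133(positive)CD71(negative) libraries. The groups did not overlap, and library 3 was far above libraries 1 and 2 of its group. The means were 154.2 ± 36.1 RPKM (SD, n = 3) and 92.3 ± 3.74 RPKM (SD, n = 2). Over all 5 libraries the difference did not pass (log2 fold change 0.71, SE 0.207, 95% interval 0.17 to 1.25, limma adjusted p = 0.0865). Without library 3 it passed (0.53, limma adjusted p = 0.00698), also with median-of-ratios scaling (0.33, limma adjusted p = 0.012). It also passed with a replicate block, in which library 3 adds nothing (0.53, limma adjusted p = 0.0385). In all, the difference passed in 4 of 14 alternatives, and library 3 added nothing to the contrast in any of these 4. It did not pass under quantile normalization (0.57, limma adjusted p = 0.203). Nor did it pass without library 1 (0.80, limma adjusted p = 0.15) or library 2 (0.81, limma adjusted p = 0.14) of CD133(high)CD71(low).

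**Figure D2:**
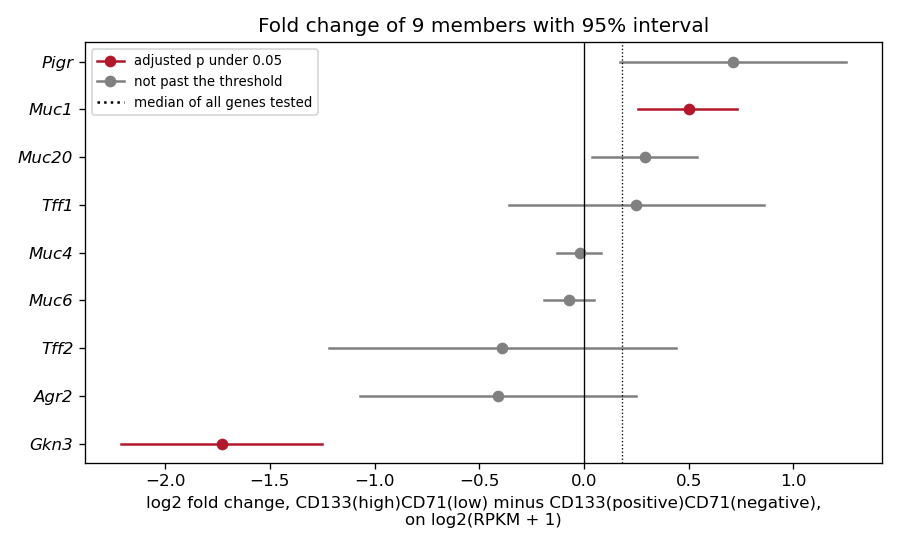
The x axis gives the difference in mean log2(RPKM + 1) of CD133(high)CD71(low) cells from CD133(positive)CD71(negative) cells, and each row is 1 of the 9 genes tested. Points are estimates, lines 95% intervals, and the dotted line the median of all genes at 0.18. Muc1 at 0.50 and Gkn3 at -1.73 passed the test.

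**Figure D3:**
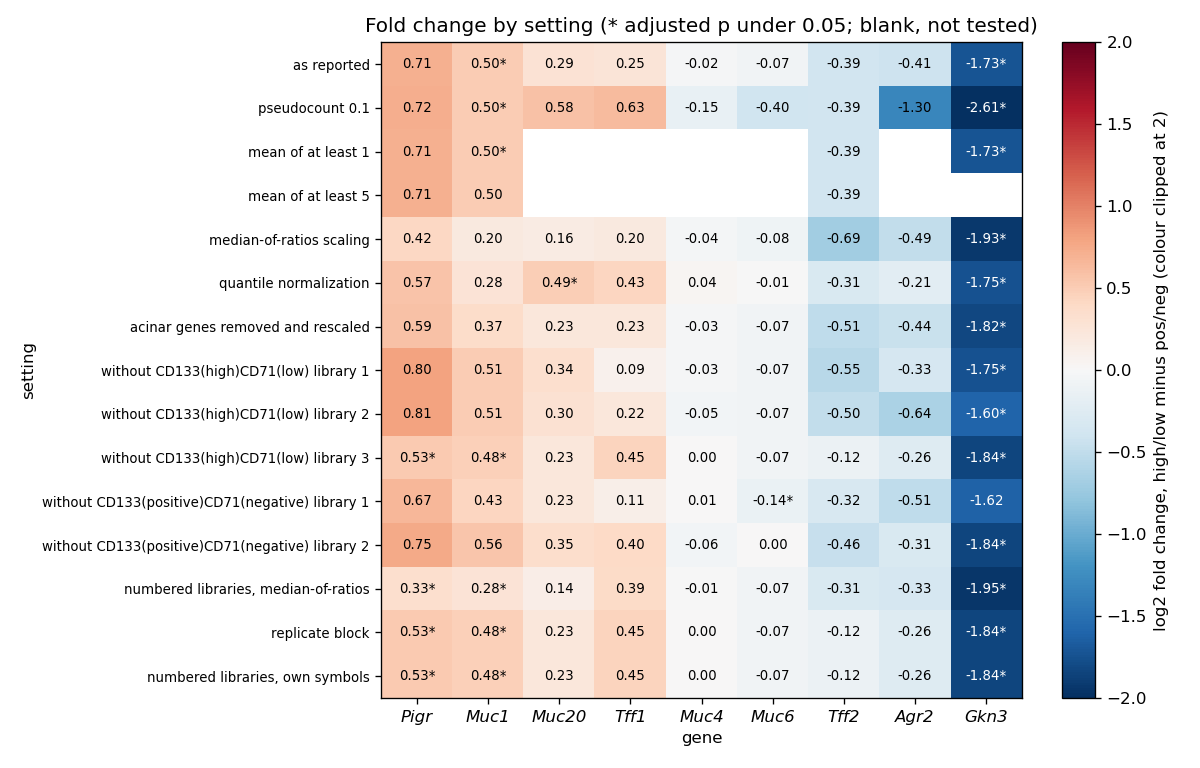
Rows are processing settings, columns the 9 genes tested, and numbers and colour the log2 fold change, positive where CD133(high)CD71(low) was higher (colour clipped at 2). Asterisks mark a limma adjusted p under 0.05 and blanks genes not tested. Gkn3 carries an asterisk in all but 1 of the settings that tested it, and Muc1 loses it in 8 of 14 alternatives.

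In CD133(high)CD71(low) cells the order of mean levels was Tff2, Pigr, Muc1, Muc20, Gkn3, Tff1, Agr2, Muc4, Muc6. The ranges of Tff2, Pigr and Muc1 did not overlap, nor did that of Muc1 with Muc20, whereas from Muc20 down to Muc6 each gene overlapped with its neighbour. In CD133(positive)CD71(negative) cells the order was Tff2, Pigr, Muc1, Gkn3, Agr2, Muc20, Tff1, Muc6, Muc4. There Agr2 overlapped with Muc20 and Muc6 with Muc4, and the other neighbours were apart.

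Markers of several cell types differed between the same groups, and many of these calls were lost when 1 of the 4 numbered libraries was left out. Leaving out library 3 of CD133(high)CD71(low) did not lower the counts for 3 of these lists. There 13 of 15 ductal markers rose, and 10 of 10 endothelial and 7 of 10 mesenchymal and stellate markers fell, where 34.9% of all genes passed. Of 15 ductal markers 12 rose and 0 fell (median log2 fold change 0.83). The rises numbered 7 under median-of-ratios scaling, 3 and 1 without library 1 or 2 of CD133(high)CD71(low), and 0 and 2 without library 1 or 2 of CD133(positive)CD71(negative), with medians of 0.55 to 0.95 in these fits. Of 10 endothelial markers 9 fell and 0 rose (median -2.54), but 1 fell without library 2 of CD133(high)CD71(low) and 1 without either CD133(positive)CD71(negative) library, with medians of -2.6 to -2.48. Of 10 mesenchymal and stellate markers 7 fell and 0 rose (median -1.55), with 4 falls at a pseudocount of 0.1, 3 without library 2 of CD133(high)CD71(low) and 0 without either CD133(positive)CD71(negative) library. Of 10 leukocyte markers 10 fell (median -4.25), as they did without any single library. Of 10 islet markers 3 fell and 0 rose (median -0.89), with 5 falls and 1 rise without library 3 and 0 calls without either CD133(positive)CD71(negative) library. Of 6 erythroid markers 2 rose and 0 fell (median 2.11). The erythroid rises numbered 0 without library 1 and 5 without library 3 of CD133(high)CD71(low), and 0 and 1 without library 1 or 2 of CD133(positive)CD71(negative). Of 13 acinar markers 0 passed in limma (0 also at an unadjusted p under 0.05, median -0.44). For 10 of the 13 the CD133(high)CD71(low) libraries all lay below the others, against 18% of all genes. The SE of the log2 fold change reached 2.044 (Amy2a5), so the lack of a call does not show equal levels. Pigr was 2.49%, 2.46% and 2.59% of the summed ductal markers in CD133(high)CD71(low) and 2.44% and 2.41% in CD133(positive)CD71(negative) libraries. Muc1 was 2.1%, 2.1% and 1.56% of that sum in CD133(high)CD71(low) and 2.11% and 2.16% in CD133(positive)CD71(negative) libraries, with library 3 the lowest. Those shares depend on Spp1, which held 53.7% to 64.0% of the ductal sum in CD133(high)CD71(low) and 61.6% to 62.3% in CD133(positive)CD71(negative) libraries. Without Spp1, a choice made after seeing the values, Pigr was 5.38%, 5.45% and 7.19% of the sum in CD133(high)CD71(low) and 6.49% and 6.28% in CD133(positive)CD71(negative) libraries. On the same basis Muc1 was 4.54%, 4.66% and 4.34% in CD133(high)CD71(low) and 5.61% and 5.62% in CD133(positive)CD71(negative) libraries. That lower share in all 3 CD133(high)CD71(low) libraries holds for this sum and not for each marker. The largest terms of the sum were Krt8 (means 634.3 and 387.5 RPKM) and Krt18 (504.3 and 289.9 RPKM). Cftr overlapped between the groups, at 5.95, 5.84 and 18.2 RPKM in CD133(high)CD71(low) and 5.87 and 7.36 RPKM in CD133(positive)CD71(negative) libraries. Tff2 was 0.375%, 0.345% and 0.445% of the summed acinar markers in CD133(high)CD71(low) and 0.344% and 0.348% in CD133(positive)CD71(negative) libraries. Gkn3 was 0.332%, 0.294% and 1.27% of the summed endothelial markers in CD133(high)CD71(low) and 0.617% and 0.546% in CD133(positive)CD71(negative) libraries. The endothelial sum itself was 225.6, 138.9 and 75.5 RPKM in CD133(high)CD71(low), against 817.2 and 768.4 RPKM in CD133(positive)CD71(negative) libraries. The mesenchymal and leukocyte sums were lower alongside Gkn3 as well. Mesenchymal markers summed to 74.7 to 78.4 RPKM in CD133(high)CD71(low) and 208.6 to 230.6 RPKM in CD133(positive)CD71(negative), and leukocyte markers to 28.9 to 64.7 RPKM and 1567 to 1596 RPKM. Vim held most of the mesenchymal sum, at 57.7 to 70.2 RPKM in CD133(high)CD71(low) and 126.3 to 142.5 RPKM in CD133(positive)CD71(negative). The part of these cell types in the members' values was not tested.

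**Figure D4:**
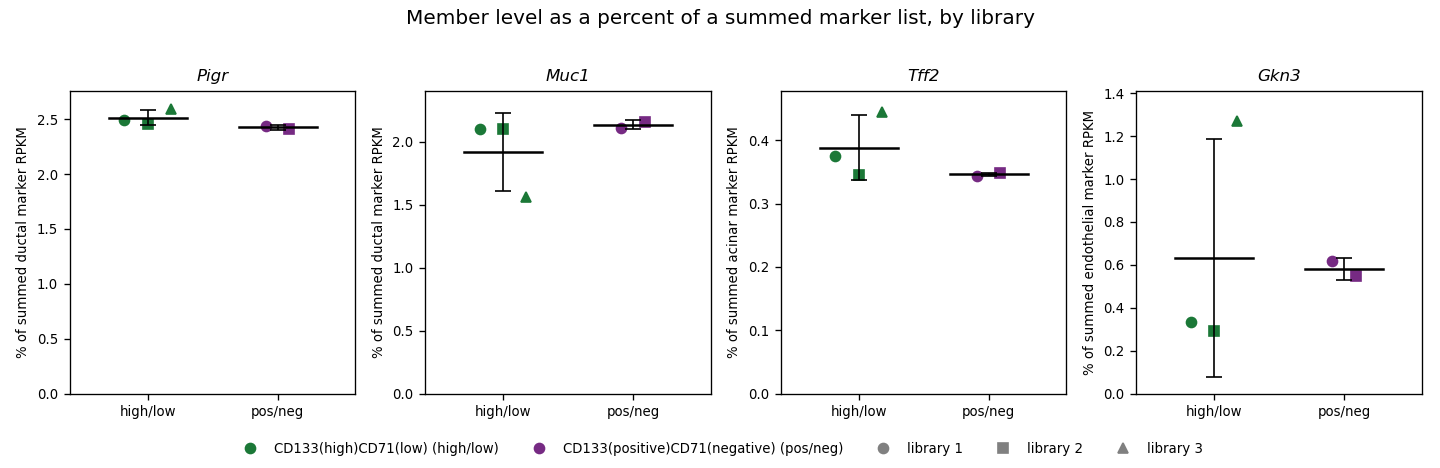
Each panel plots 1 gene as a percent of a summed marker list (y axis from 0), with CD133(high)CD71(low) libraries left and CD133(positive)CD71(negative) libraries right. Lines are means and bars SDs. Pigr lies between 2.41% and 2.59% of the ductal sum, which includes Spp1, and library 3 stands apart for Muc1 at 1.56%, Tff2 at 0.445% and Gkn3 at 1.27%.

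Of 11 other genes listed as membrane-bound mucins or sialomucins 4 were tested, and 3 fell and 0 rose (median log2 fold change -1.74). The 4 were Podxl, Emcn, Mcam and Cd164. No gene named Muc was among them, so the counts are no result about membrane-bound mucins as a class. The falls numbered 1 without library 2 of CD133(high)CD71(low) and 1 without either CD133(positive)CD71(negative) library, with medians of -1.82 to -1.66. Podxl, encoding podocalyxin of podocytes and endothelium, measured 25.8 ± 4.37 RPKM in CD133(high)CD71(low) and 91.9 ± 6.18 RPKM in CD133(positive)CD71(negative) (limma adjusted p = 0.00387). Emcn, encoding the endothelial sialomucin endomucin, measured 3.27 ± 1.51 and 26.9 ± 2.59 RPKM in the same groups (limma adjusted p = 0.00948). The third was Mcam, an adhesion molecule of endothelium and pericytes. It was listed because it is also called MUC18, though it is not a mucin. Emcn is also one of the 10 endothelial markers, so it was counted in both lists, and the part of endothelial cells in these falls was not tested. Cd164 measured 67.9, 79.1 and 117.0 RPKM in CD133(high)CD71(low) and 59.0 and 68.0 RPKM in CD133(positive)CD71(negative) libraries. It did not pass (limma adjusted p = 0.284).

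Of 6 other gel-forming and secreted mucins 1 was common to all tables, Muc19, at 0.00343 to 0.00608 RPKM in CD133(high)CD71(low) and 0.0302 to 0.0443 RPKM in CD133(positive)CD71(negative). It did not pass (limma adjusted p = 0.123), although the groups did not overlap and it passed as lower with a pseudocount of 0.1 (log2 fold change -0.39). Its values stand for about 1 to 8 reads. Muc5b was at 0 in libraries 1 and 2 of CD133(high)CD71(low) and library 1 of CD133(positive)CD71(negative). In library 2 of CD133(positive)CD71(negative) it was at 0.00337 RPKM, about 1 read. Muc2 was listed only in library 3 of CD133(high)CD71(low), at 0.0117 RPKM. That is about 1.4 reads at the transcript length used (2926 bases), below the 0.0246 RPKM of 3 reads. Muc5ac, Muc7 and Mucl2 gave no value. Of 18 other trefoil, gastrokine and mucus-layer genes 10 were tested, and 0 passed in limma (1 higher and 1 lower at an unadjusted p under 0.05). The 2 most abundant were Zg16 (chosen as a mucus-layer lectin and also a zymogen granule protein of acinar cells) and Dmbt1, a scavenger receptor of mucosal secretions. Zg16 measured 4319, 4412 and 2783 RPKM in CD133(high)CD71(low) and 5275 and 4903 RPKM in CD133(positive)CD71(negative). Dmbt1 measured 470.4, 484.7 and 342.9 RPKM and 569.6 and 541.6 RPKM in the same groups. Without library 3, 2 of 9 tested genes of this list rose and 0 fell, and 1 rose and 1 fell there with median-of-ratios scaling. Without any other single library 0 passed.

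Of 12 gastric mucous markers 7 were tested, 1 fell (Gkn3) and 0 rose, and apart from the members A4gnt, Pgc and Psca stayed at or below 0.155 RPKM in all libraries. Gkn1, Gkn2, Muc5ac, Vsig1 and Cldn18 were looked up and gave no value. Of 8 goblet markers 4 were tested and 0 passed in limma (0 higher and 1 lower at an unadjusted p under 0.05). The goblet sum of 2792 to 4418 RPKM in CD133(high)CD71(low) and 4908 to 5279 RPKM in CD133(positive)CD71(negative) was nearly all Zg16, described above. Fcgbp, encoding the mucus protein IgG Fc binding protein, measured 2.62, 3.02 and 7.79 RPKM in CD133(high)CD71(low) and 1.29 and 1.4 RPKM in CD133(positive)CD71(negative) (limma adjusted p = 0.147).

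Of 29 genes of mucin-type O-glycosylation 1 rose and 3 fell (median log2 fold change 0.03). The sialyltransferase gene St3gal4 measured 188.2 ± 11.5 RPKM in CD133(high)CD71(low) and 115.5 ± 5.07 RPKM in CD133(positive)CD71(negative) (limma adjusted p = 0.0167). Gcnt1, which builds the branched core of O-glycans, measured 0.528 ± 0.0264 and 2.31 ± 0.415 RPKM in the same groups (limma adjusted p = 0.00447). St3gal1, which caps the unbranched core with sialic acid, measured 2.35 ± 0.56 and 8.58 ± 0.556 RPKM (limma adjusted p = 0.00919). Under median-of-ratios scaling 0 of 29 rose and 6 fell, and without library 3, 4 of 26 rose and 5 fell. Without library 1 or 2 of CD133(high)CD71(low) 0 rose and 4 and 2 fell, and without either CD133(positive)CD71(negative) library 0 rose and 1 fell, so the St3gal4 call was lost in each of these 4 fits. The leukocyte markers fell alongside, and their part in these falls was not tested.

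Of 17 transcription factors of mucous and related epithelia 4 rose and 2 fell (median 0.05). Klf5 measured 8.08 ± 0.198 RPKM in CD133(high)CD71(low) and 4.23 ± 0.422 RPKM in CD133(positive)CD71(negative) (limma adjusted p = 0.0149), and Foxa2 36 ± 2.14 and 22.1 ± 1.94 RPKM (limma adjusted p = 0.0177). Klf4, needed for goblet cell maturation in mouse colon, measured 7.35 ± 1.48 and 18.2 ± 1.1 RPKM (limma adjusted p = 0.0181). Sox2, a foregut factor, was at most 0.0127 RPKM in CD133(high)CD71(low) and 0.103 and 0.128 RPKM in CD133(positive)CD71(negative) (limma adjusted p = 0.012). Under median-of-ratios scaling 1 rose and 2 fell, and without library 3, 7 rose and 2 fell. Without library 1 of CD133(high)CD71(low) 0 rose and 2 fell, and without library 2 of that group 0 rose and 0 fell. Without library 1 of CD133(positive)CD71(negative) 0 rose and 0 fell, and without library 2 of that group 1 rose and 1 fell. Spdef, the goblet cell factor, measured 1.36 to 2.86 RPKM in CD133(high)CD71(low) and 2.46 to 2.52 RPKM in CD133(positive)CD71(negative) and did not pass.

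Exocytosis genes gave 0 rises and 1 fall among 16 (median 0.26), Sytl2 at 0.11 ± 0.0439 RPKM in CD133(high)CD71(low) and 0.34 ± 0.0973 RPKM in CD133(positive)CD71(negative) (limma adjusted p = 0.0456). Without library 3, 5 of the 16 rose and 1 fell, but 2 rose and 4 fell there with median-of-ratios scaling. Without any other single library 0 rose and 0 fell, so the Sytl2 call was lost in each of those 4 fits, as it was with a pseudocount of 0.1. Of 15 disulfide isomerase and endoplasmic reticulum genes 0 passed in limma (2 higher and 1 lower at an unadjusted p under 0.05). Without library 3, 2 of 14 rose and 1 fell, and 0 rose and 1 fell there with median-of-ratios scaling. The most abundant were Pdia2, at 241.1 to 375.6 RPKM in CD133(high)CD71(low) and 384 to 427.1 RPKM in CD133(positive)CD71(negative), and P4hb, at 231.2 to 257.7 and 233.5 to 254.5 RPKM.

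Of 8 tested genes of polymeric immunoglobulin and the cells that make it 5 fell and 0 rose (median -0.89). The falls numbered 3 without library 2 of CD133(high)CD71(low) and 3 without either CD133(positive)CD71(negative) library. Igj, encoding the joining chain that Pigr binds, measured 1.32, 1.49 and 3.63 RPKM in CD133(high)CD71(low), against 111.1 and 85.1 RPKM in CD133(positive)CD71(negative) libraries (log2 fold change -5.04, limma adjusted p = 0.00198). The plasma cell receptor gene Tnfrsf17 was listed at 0 in the 3 CD133(high)CD71(low) libraries and at 0.628 and 0.621 RPKM in CD133(positive)CD71(negative). Pou2af1, a B cell coactivator, measured 0.232 ± 0.0656 and 1.61 ± 0.105 RPKM in the same groups (limma adjusted p = 0.00139). Igj and Tnfrsf17 are also among the plasma and B cell markers, of which 5 of 6 fell (3 without library 2 of CD133(high)CD71(low) or without either CD133(positive)CD71(negative) library) and whose part was not tested.

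For the 4 members with a mean of at least 1 RPKM, the genes with the closest profiles over the 5 libraries were sought among 11768 others, by root mean square distance of centred log2(RPKM + 1). For Muc1 they were Dag1 (distance 0.0112), Igf2r (0.0149) and Hr (0.0156). For Pigr they were Mks1 (0.0186), 2010107G23Rik (0.0214) and Cryz (0.022). For Tff2 they were Ctrl (0.0441) and Sycn (0.0446), both genes of acinar secretion, and Ftl1 (0.0457). For Gkn3 they were Sp100 (0.0694), Cyth4 (0.118) and Abca8a (0.123), so its nearest neighbours lay farther off. With 5 libraries such matches are a description.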

How the data were processed

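Each library has its own table, in which the authors list 1 value per symbol for 18618 symbols, or 22522 in library 3. Partek and the build mm10 are named in the submitters' processing notes. Not given in the sources used here are the aligner and the annotation. The unit is stated nowhere, and the deposited values were taken as RPKM. Low values times GENCODE M21 transcript length lay within 0.05 of a whole number of reads in 57.1% to 60.5% of cases per library. The depth of each library was picked for a high share, and by chance the share is 10.0% at a depth fixed beforehand. The shares reached were too low for a test on counts. A row of library 3 that counts alignments rather than a gene was dropped.

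The 16992 symbols common to the 5 tables were used, and those above 0 in at least 1 library (16887) were fitted with limma 3.58.1 in R 4.3.3 on log2(RPKM + 1), group as the only term, a trended prior variance and Benjamini-Hochberg adjustment over all genes. Fold changes on this scale understate those of low genes. The fit was run on simulated data with 200 changed genes, as a check of the code. That simulation held no outlying library and no change as small as that of Muc1, so it does not bear on the members. Read estimates use the longest RefSeq-linked transcript and are approximate.

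The members and lists were chosen with earlier results of these data known. Named are all members, up to 2 higher and 2 lower members of each other list by adjusted p (or the 2 most abundant if none passed), and the 3 nearest genes per member. Mcam, Cd164, Muc2, Muc5b, Fcgbp, Spdef, Igj, Krt8, Krt18, Cftr and the scarce gastric genes were named after their values were seen, as were values of single settings. Alternatives were a pseudocount of 0.1, means of at least 1 or 5, 3 scalings, each library left out, a block for the replicate number, and median-of-ratios scaling without library 3. A fit of the 4 numbered libraries with all their own symbols, and the ductal sum without Spp1, were chosen after seeing the data. Positions are from GENCODE M21 (mm10). Python 3.11.15 with pandas 2.3.3 made the tables and matplotlib 3.10.9 the figures.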

Additional observations from a re-analysis of the deposited data

Results flagged for a closer look

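Muc16, a large membrane-bound mucin known from mesothelium, was listed only in the table of CD133(high)CD71(low) library 3, at 0.138 RPKM, about 147 reads, and so entered no comparison. That lies above 0.00283 RPKM, the value of 3 reads at its length in this library. The other 4 tables gave no value to set beside it.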

How the results depend on the processing

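Of 16887 genes 2687 passed in limma, 35.7% of them higher. With each library left out the count was 951 to 5828 (5828 without CD133(high)CD71(low) library 3, 62.8% higher). It was 1585 and 820 with a mean of at least 1 or 5, where fewer genes are tested, and 5416 in the 4 numbered libraries with their own symbols. Median-of-ratios scaling left 17.8% of calls higher. Of the members 2 passed, and 1 to 3 with each library left out (1, Muc6, without CD133(positive)CD71(negative) library 1, whose partner is then assumed to vary like the other group). The count was 1 (Gkn3) under median-of-ratios scaling and 1 (Gkn3) with acinar genes removed, and 0 of 3 tested with a mean of at least 5 (2 at an unadjusted p under 0.05), where Gkn3 was not tested. Under quantile normalization it was 2, Muc20 and Gkn3. The numbered libraries with their own symbols gave 3 (Muc1, Pigr and Gkn3), as did those libraries with median-of-ratios scaling. The cause was not tested.

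With the replicate number as a block, in which library 3 has a block of its own and adds nothing to the contrast, 2565 genes and 3 members passed (Muc1, Pigr and Gkn3). Deviations of same-numbered libraries correlated at -0.024 across 11769 genes, and the labels do not say that numbers pair libraries.

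Among the members, fitted directions turned under these alternatives for Muc4 and Muc6 only. Muc4 was at 0.04 under quantile normalization, 0.0025 under the replicate block and with the numbered libraries' own symbols, and -0.06 to 0.01 with each library left out. Muc6 ranged from -0.14 to 0.0047 with each library left out. At the depth of these libraries Muc4, Muc6, Muc13, Tff1 and Agr2 rest on few reads.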
